A study of Bos taurus with 15 samples.

Results

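The cell cycle and mitosis genes of the bovine blastocyst were followed across control embryos and embryos cultured with oviductal extracellular vesicles (oEVs). The list holds 50 genes, chosen by symbol, and 49 of them were found by NCBI Gene ID among the 10832 genes of the filtered read count table, while 1, CCND1, was found only in the unfiltered table of 34773 genes. Bovine embryos were produced in vitro and cultured without supplementation (Co), with freshly isolated oEVs (FeEV) or with oEVs that had been frozen and thawed (FoEV). All oEVs came from oviducts of postovulatory cows collected at a slaughterhouse, and both preparations were taken from the same material. The samples are labelled as day 7 blastocysts, while the methods give a culture of 1 more day. Of the pools collected, those with the best RNA were taken on. Total RNA was sequenced from 15 pools of 8 to 14 whole embryos, 5 per treatment, so that every value is an average over embryos and over the cell types of the blastocyst. In such pools, fewer cells of a type and less RNA per cell cannot be told apart. Nothing in the labels says that the pools of a treatment came from separate fertilization sessions, and the p-values measure only the spread between these pools.

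The cell cycle is driven by cyclin-dependent kinases (CDKs), whose partner cyclins are made and destroyed in turn. D-type cyclins with CDK4 and CDK6 act on the retinoblastoma protein and so release E2F factors, cyclin E with CDK2 starts DNA replication at origins that were licensed by the MCM helicase, and cyclin B with CDK1 drives mitosis. Exit from mitosis waits for the spindle checkpoint, which holds back the anaphase-promoting complex until every chromosome is attached. In the blastocyst, trophectoderm and inner cell mass cells both divide. The genes were sorted by role into 3 lists. They were G1 entry and brakes (6 genes), G1/S and DNA synthesis (19 genes) and G2 and mitosis (25 genes).

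Library totals lay between 2136713 and 4058887 gene counts, and every FoEV library held more of them than every Co library. Levels are given as CPM (counts of a gene relative to the library total) after scaling by TMM, which corrects for library size and composition. The summed marker levels and CCND1 are exceptions, given as CPM of the unfiltered table without TMM. All 10832 genes were tested in 1 edgeR fit by quasi-likelihood, and p-values were adjusted over all of them by Benjamini-Hochberg. Of 8 oviduct markers, 1 (PAX8) was high enough to be tested. The others were low, with 0 to 6 counts for OVGP1, 0 to 4 for FOXJ1, 0 in every library for OSTN and 1 to 17 for ESR1. The summed level over the 8 genes ran from 5.93 to 16.2 CPM. Of 10 cumulus and granulosa cell genes, 4 were high enough to be tested, and the summed level of the 10 ran from 59.2 to 164 CPM. Among those too low to be tested, PTX3 had 0 to 1 counts and HAS2 0 to 13. The trophectoderm markers CDX2, GATA3 and keratins were present, and their levels by treatment are given further on.

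Nearly the whole machinery of the cell cycle was detected in the blastocysts of each treatment. Together, the 50 genes took 0.428% to 0.616% of all counts of a library, and the treatments, with medians of 0.503% (Co), 0.539% (FeEV) and 0.502% (FoEV), overlapped. Mean levels ran from 5.38 CPM (RB1 in FeEV) to 428 CPM (TOP2A in Co). They are not corrected for transcript length and are compared only within a gene. The median count per library was at least 100 for 38 of the 49 tested genes, and the lowest median was 20, for RB1. The biological coefficient of variation, the spread between pools beyond counting error, had a median of 0.119 over the 49 genes, from 0.0872 for BUB1 to 0.297 for CDK6.

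In FoEV vs. Co, the question was whether frozen oEVs changed the levels of these genes. By edgeR's quasi-likelihood test, 0 of 49 reached an adjusted p under 0.05 (lowest adjusted p = 0.135), against 1 of all genes tested (0.00923%). At an unadjusted p under 0.05, 11 of the 49 genes passed, or 22.4%, where the share of all genes was 15.1%. The difference between these shares was not tested, and with the library number as a term in the fit 7 of 49 passed (14.3%), all lower and 6 of them among the 11, beside 14.6% of all genes. Of the 11, 9 were lower in FoEV (TTK, KIF11, CDK2, WEE1, BUB1B, BUB1, BUB3, CDC6 and TPX2) and 2 were higher (CDC20 and MCM5). Over all genes the shares were 6.88% lower and 8.18% higher. Whatever their p, 34 genes had a lower and 15 a higher mean in FoEV, the median log2 fold change being -0.08, while over all genes 52.3% were higher and the median was 0.01. The Wald test of DESeq2 called TTK and KIF11 at an adjusted p under 0.05, among 144 of all genes (1.33%), and the likelihood ratio test on a robust dispersion, which the methods name, called TTK among 311 (2.87%).

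Lower means in FoEV than in Co were found in all 3 lists, for 17 of 25 genes of G2 and mitosis, 13 of 19 of G1/S and DNA synthesis and 4 of 5 of G1 entry and brakes. In G2 and mitosis, 7 of 25 genes were lower and 1 was higher in FoEV than in Co at an unadjusted p under 0.05, with a median log2 fold change of -0.09. Over all genes tested, 6.88% were lower and 8.18% higher at this threshold. Of the 19 genes of G1/S and DNA synthesis, 2 were lower and 1 was higher, with a median of -0.05. Among the 5 tested genes of G1 entry and brakes 0 passed, also at an unadjusted p, and the median was -0.08. The difference between the lists was not tested. As a mean log2 CPM per library, G2 and mitosis genes had means ± SD (n = 5) of 6.70 ± 0.09 (Co), 6.71 ± 0.07 (FeEV) and 6.63 ± 0.04 (FoEV). Of these, the means of FeEV and FoEV differed by more than either SD, though their libraries overlapped. G1/S genes were at 5.85 ± 0.04, 5.90 ± 0.10 and 5.81 ± 0.12, and their means differed by less than the larger SD of each pair. G1 entry and brakes genes were at 4.80 ± 0.22, 4.54 ± 0.14 and 4.62 ± 0.21. There the means of Co and FeEV also differed by more than either SD, and their libraries overlapped.

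**Figure D1:**
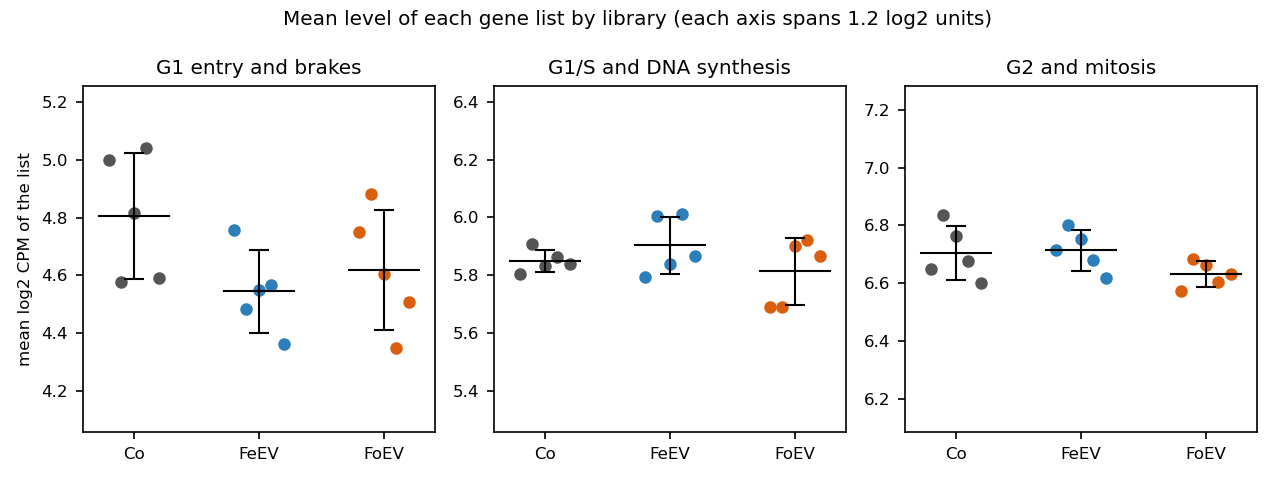
Mean log2 CPM of the genes of each list (y axis) in every library (points) by treatment (x axis), with the mean and SD (bars, n = 5). The treatments overlapped in all 3 lists. For G2 and mitosis genes the FoEV libraries lay between 6.57 and 6.68 and the Co libraries between 6.60 and 6.83.

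Of the 5 genes of the spindle checkpoint and CDC20, 3 were lower (BUB1, BUB1B and BUB3) and 1 was higher (CDC20) in FoEV than in Co at an unadjusted p under 0.05, a threshold that 15.1% of all genes passed, and with the library number as a term in the fit no gene of the 49 was higher past it. BUB1, a kinetochore kinase of the checkpoint, had mean levels ± SD (n = 5) of 94.7 ± 3.72 CPM in Co, 93.2 ± 6.88 in FeEV and 80.7 ± 6.37 in FoEV. In Co, BUB1 was at 94.1, 95.1, 99.3, 95.9 and 89.1 CPM in the libraries in order of replicate number, in FeEV at 82.3, 93.6, 101, 94.7 and 94.1, and in FoEV at 77.8, 78.2, 89, 73.1 and 85.3. Every FoEV library was below every Co library, and the FeEV libraries lay on both sides of them (log2 fold change -0.23, standard error 0.09, edgeR adjusted p = 0.219). BUB3, which brings BUB1 and BUB1B to kinetochores, was also lower in every FoEV than in every Co library, with 141, 158, 142, 139 and 143 CPM in Co and 132, 117, 128, 115 and 136 in FoEV (log2 fold change -0.20, standard error 0.08, edgeR adjusted p = 0.257). Its FeEV libraries, at 142, 121, 143, 138 and 127 CPM, overlapped with both. Such a lack of overlap between FoEV and Co was found for 3 of the 49 genes, the third being CDK2, and for 2.6% of all genes (1.35% lower in FoEV).

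BUB1B, the checkpoint protein BUBR1 that inhibits CDC20, had 63.8, 102, 76.8, 84.7 and 82.5 CPM in Co, 80.5, 78, 67.9, 79.7 and 67 in FeEV and 63.7, 74.9, 67.8, 68.4 and 57 in FoEV. The Co libraries spread widely from 1 low to 1 high pool, and the FoEV libraries lay in the lower part of that range (log2 fold change -0.30, standard error 0.11, edgeR adjusted p = 0.216). Without Co replicate 2 the log2 fold change was -0.21. CDC20, the activator of the anaphase-promoting complex that the checkpoint holds back, pointed the other way. In Co, CDC20 was at 102, 103, 111, 99.5 and 104 CPM in the libraries in order of replicate number, in FeEV at 109, 105, 118, 116 and 115, and in FoEV at 116, 106, 145, 129 and 110.4. Replicates 1, 3 and 4 of FoEV exceeded all Co libraries, and the other two lay below Co replicate 3 alone (log2 fold change 0.22, standard error 0.09, edgeR adjusted p = 0.25). MAD2L1, which binds CDC20 in the checkpoint complex, was at 300.4, 401, 347, 323 and 332 CPM in Co, 438, 388, 378, 393 and 352 in FeEV and 338, 390.5, 381, 257 and 420.1 in FoEV. All treatments overlapped, and the log2 fold changes of 0.07 in FoEV vs. Co and 0.19 in FeEV vs. Co did not pass the unadjusted threshold.

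Among the mitotic kinases, TTK (the checkpoint kinase MPS1) had the smallest p of all 49 genes in FoEV vs. Co. In Co, TTK was at 78.4, 117, 113, 105 and 84.1 CPM in the libraries in order of replicate number, in FeEV at 86.7, 101, 83.8, 93.4 and 93.3, and in FoEV at 63.4, 76.9, 69.98, 66.8 and 93.2. In FoEV, 4 of 5 libraries were below every Co library, and replicate 5 lay among the Co values (log2 fold change -0.43, standard error 0.12, edgeR adjusted p = 0.135, 95% interval -0.68 to -0.18). FoEV libraries were also lower than FeEV libraries on average (log2 fold change -0.31, standard error 0.12, edgeR adjusted p = 0.509), and FeEV and Co overlapped (log2 fold change -0.12, standard error 0.12, edgeR adjusted p = 1.00). AURKB, the catalytic subunit of the chromosomal passenger complex, was at 22.3 ± 1.26 CPM in Co, 24.3 ± 2.05 in FeEV and 27.5 ± 6.14 in FoEV, where the libraries spread from 19.9 to 35.1. Its log2 fold change in FoEV vs. Co was 0.29, not past the unadjusted threshold. AURKA, which acts at spindle poles, had log2 fold changes of -0.04 in FoEV vs. Co and 0.07 in FeEV vs. Co. For PLK1, which acts from mitotic entry to cytokinesis, they were 0.02 and 0.06.

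All 6 genes of kinetochore and spindle proteins had lower means in FoEV than in Co, and 2 passed the unadjusted threshold, which 15.1% of all genes passed. KIF11, the motor that pushes spindle poles apart, was at 147, 177, 173, 169 and 151 CPM in Co, 156, 166, 146, 149.8 and 128 in FeEV and 133, 132, 129, 127 and 147 in FoEV. The highest FoEV library and the lowest Co library were about level, and the other FoEV libraries lay below all Co libraries (log2 fold change -0.29, standard error 0.09, edgeR adjusted p = 0.148, 95% interval -0.47 to -0.11). TPX2, which activates AURKA on the spindle, had 208 ± 24.5 CPM in Co and 184 ± 9.51 in FoEV (log2 fold change -0.18, standard error 0.09, edgeR adjusted p = 0.33), with Co replicate 2 at 251 above all other Co libraries. The kinetochore motor CENPE, the kinetochore protein CENPF, the cytokinesis motor KIF20A and the midzone bundler PRC1 had log2 fold changes between -0.13 and -0.08. Between the vesicle preparations, CENPF was lower in FoEV, with 311, 393, 301, 285 and 297 CPM against 339, 431, 357, 370.3 and 345 in FeEV and 357, 400.5, 319, 349 and 290.1 in Co (log2 fold change -0.21, standard error 0.10, edgeR adjusted p = 0.578). The FoEV and FeEV values overlapped through FoEV replicate 2, and without that library the log2 fold change was -0.30. Without FeEV replicate 2, the highest FeEV library, it was -0.15.

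**Figure D2:**
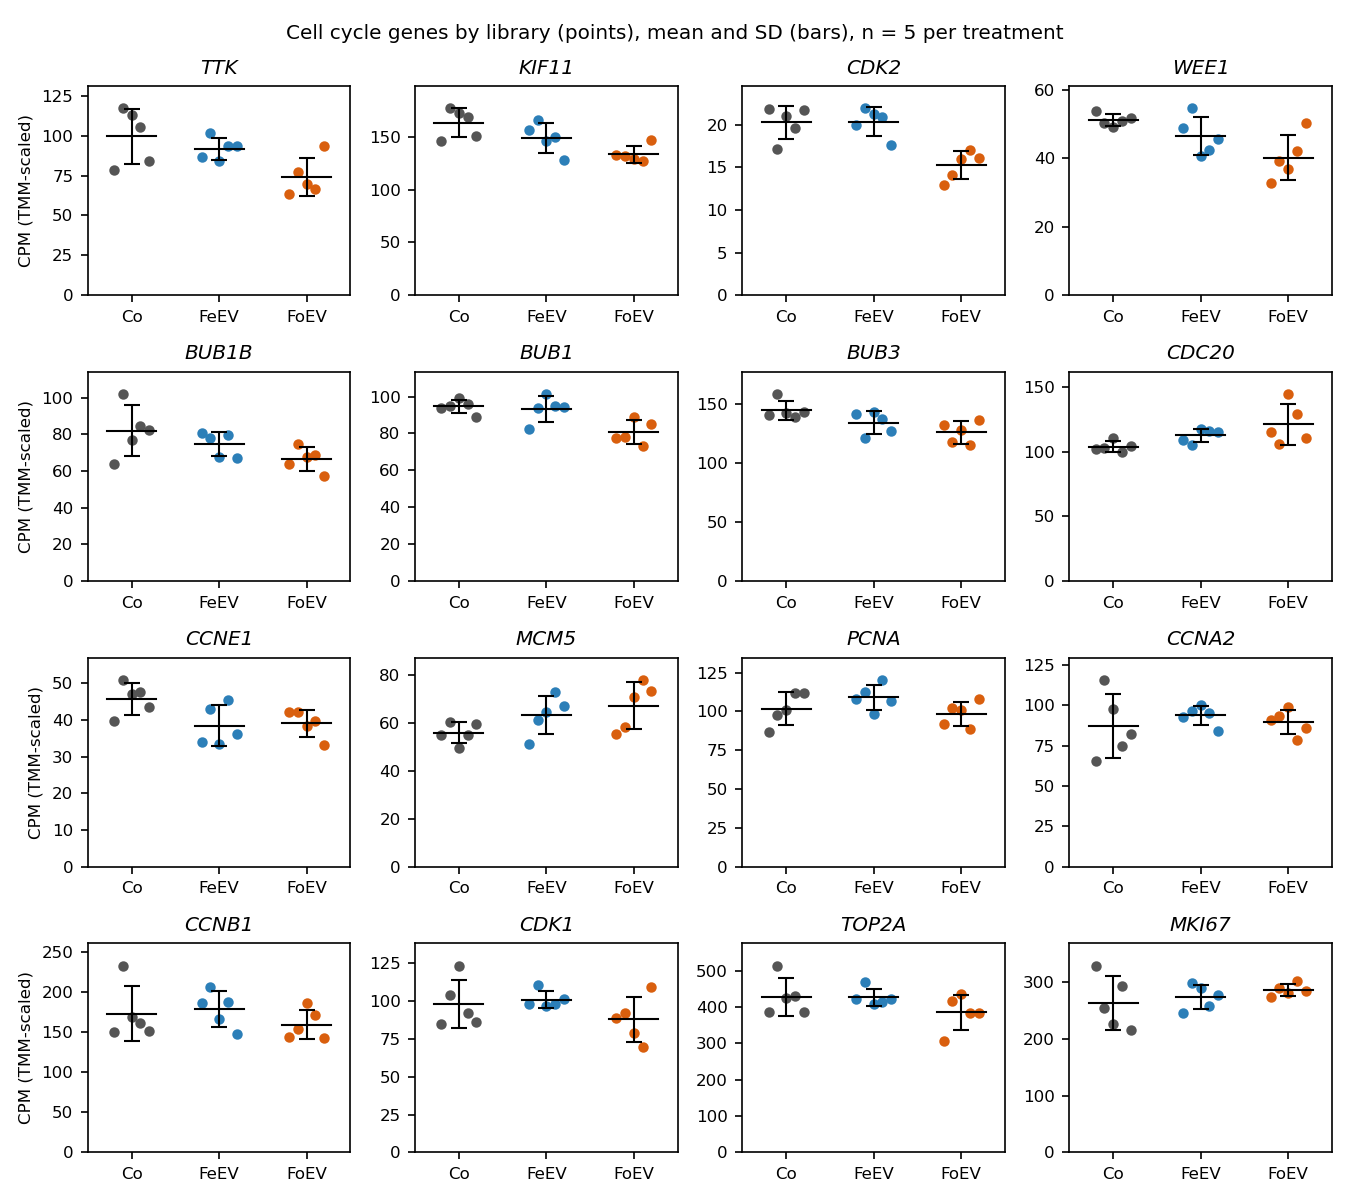
Level in TMM-scaled CPM (y axis, from 0) of 16 cell cycle genes in each library (points, replicate 1 to 5 from left to right) by treatment (x axis), with the mean and SD (bars, n = 5). FoEV points lie below Co points in every library for CDK2, BUB1 and BUB3, whereas for CCNA2, PCNA and MKI67 the treatments overlap.

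None of the 5 genes of mitotic cyclins and CDK1 passed the unadjusted threshold in any comparison. CDK1 was at 84.6, 104, 123, 91.9 and 85.8 CPM in Co, 97.8, 111, 96.3, 97.9 and 101 in FeEV and 88.9, 92.1, 78.8, 69.8 and 109 in FoEV. Both the highest and the lowest of the 15 values lay outside FeEV, whose libraries were close together, and all treatments overlapped (log2 fold change -0.16, standard error 0.12, edgeR adjusted p = 0.546, 95% interval -0.40 to 0.09). Its partner CCNB1 (cyclin B1) had 150.2, 233, 169, 162 and 151 CPM in Co, 187, 206, 167, 188 and 148 in FeEV and 144, 154, 186, 171 and 143 in FoEV. Co replicate 2 was the highest of all 15 libraries, and without it the log2 fold change in FoEV vs. Co moved from -0.12 to 0.01. CCNA2 (cyclin A2, of S phase and early mitosis) was at 65.3, 116, 97.7, 75.1 and 82.5 CPM in Co, 92.7, 96.6, 100.1, 95.2 and 84.1 in FeEV and 90.8, 93.6, 98.6, 78.8 and 86.1 in FoEV. The Co libraries enclosed those of both vesicle treatments (95% interval of the log2 fold change in FoEV vs. Co -0.22 to 0.29). CCNB2 (cyclin B2) was at 30.8 ± 3.03 CPM in Co and 31.9 ± 4.31 in FoEV, and CKS1B, a small subunit of CDK complexes, at 55.6 ± 5.02 and 67.8 ± 11.5 with a log2 fold change of 0.29 that did not pass the unadjusted threshold.

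Entry into mitosis is set by the CDC25 phosphatases, which activate CDKs, and by WEE1, which inhibits them. WEE1 was at 54, 50.3, 49, 51 and 51.7 CPM in Co, 48.9, 54.6, 40.7, 42.4 and 45.5 in FeEV and 32.6, 39.1, 36.9, 42.1 and 50.4 in FoEV. The Co libraries were close together, and 4 of the 5 FoEV libraries were below all of them, FoEV replicate 5 lying among them (log2 fold change -0.35, standard error 0.12, edgeR adjusted p = 0.179). CDC25A was at 101, 134, 104, 126 and 103 CPM in Co, 108, 152, 128, 153 and 128 in FeEV and 107, 101, 123, 139 and 109 in FoEV. The mean was highest in FeEV, the treatments overlapped, and the gene did not pass the unadjusted threshold in any comparison (log2 fold change 0.24, standard error 0.12, edgeR adjusted p = 1.00 in FeEV vs. Co). CDC25B and CDC25C had log2 fold changes from -0.07 to 0.04 against Co in both treatments. CHEK1, the checkpoint kinase that restrains CDC25A, was at 54.5 ± 9.4 CPM in Co, with replicate 2 apart at 70.8, 55 ± 10.3 in FeEV and 47.7 ± 8.12 in FoEV.

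CDK2, the kinase of cyclin E and cyclin A, was lower in FoEV than in both other treatments. In Co, CDK2 was at 21.9, 17.2, 21, 19.7 and 21.8 CPM in the libraries in order of replicate number, in FeEV at 19.97, 21.9, 21.3, 21 and 17.6, and in FoEV at 13, 14.1, 16, 17 and 16.1. The FoEV libraries lay below every Co and every FeEV library, and Co and FeEV overlapped. The log2 fold change was -0.42 in FoEV vs. Co (standard error 0.14, edgeR adjusted p = 0.178), -0.42 in FoEV vs. FeEV (standard error 0.14, edgeR adjusted p = 0.486) and 0.00087 in FeEV vs. Co (95% interval -0.29 to 0.29). In FoEV vs. FeEV it was the only 1 of the 49 genes without overlap, against 1.5% of all genes (0.757% higher and 0.748% lower in FoEV). CCNE1 (cyclin E1) was at 39.7, 50.9, 47.1, 47.8 and 43.5 CPM in Co, 34, 43.1, 33.5, 45.5 and 36.3 in FeEV and 42.1, 42.1, 38.3, 39.7 and 33.3 in FoEV. Both vesicle treatments had lower means than Co, with overlap (log2 fold change -0.26, standard error 0.12, edgeR adjusted p = 1.00 in FeEV vs. Co, and -0.23 with adjusted p = 0.362 in FoEV vs. Co). CCNE2 (cyclin E2) had log2 fold changes of -0.06 in FoEV and 0.13 in FeEV against Co.

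Origin licensing, which loads the MCM helicase on DNA in G1, held genes with means on both sides of Co. CDC6, a loading factor, had 21.9, 20.6, 23.2, 15.7 and 18.5 CPM in Co, 18.5, 23, 21, 23.7 and 21.8 in FeEV and 13.9, 14.1, 13.8, 17 and 21 in FoEV. FoEV replicates 1 to 3 were below every library of both other treatments, and replicates 4 and 5 lay among the Co values (log2 fold change -0.43, standard error 0.16, edgeR adjusted p = 0.496 in FoEV vs. FeEV, and -0.33 with adjusted p = 0.323 in FoEV vs. Co). For MCM5, a helicase subunit, the values were 54.7, 60.1, 49.3, 55 and 59.5 CPM in Co, 51, 60.9, 64.4, 72.9 and 66.8 in FeEV and 55.3, 58.3, 70.5, 77.8 and 73.3 in FoEV. FoEV replicates 3 to 5 were above all Co libraries and replicates 1 and 2 among them (log2 fold change 0.26, standard error 0.12, edgeR adjusted p = 0.282). The other helicase subunits had log2 fold changes in FoEV vs. Co of 0.18 (MCM2), 0.15 (MCM3), -0.03 (MCM4), -0.10 (MCM6) and -0.00021 (MCM7), all short of the unadjusted threshold. CDT1, the other loading factor, was at 13.9 ± 2.07 CPM in Co, 17.5 ± 2.57 in FeEV and 17 ± 4.76 in FoEV, and its inhibitor GMNN (geminin) at 68.1 ± 4.57, 67.8 ± 9.69 and 61.4 ± 3.33.

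For DNA synthesis and nucleotide supply, 0 of 4 genes passed the unadjusted threshold in any comparison. PCNA, the sliding clamp of DNA polymerases, was at 86.4, 97.5, 101, 112 and 112 CPM in Co, 108, 112, 98.5, 120.2 and 106 in FeEV and 91.7, 102, 101, 88.5 and 108 in FoEV. All treatments overlapped, and the 95% interval of the log2 fold change was -0.24 to 0.15 in FoEV vs. Co and -0.09 to 0.30 in FeEV vs. Co. The ribonucleotide reductase subunits had intervals of -0.33 to 0.03 (RRM1) and -0.26 to 0.11 (RRM2) in FoEV vs. Co, and thymidylate synthase (TYMS) of -0.27 to 0.20. The proliferation marker MKI67, a coat of mitotic chromosomes, had 329, 254, 226, 294 and 215 CPM in Co, 246, 299, 289, 258 and 278 in FeEV and 274, 290.4, 280.2, 303 and 285 in FoEV. The Co libraries spread around those of both other treatments (95% interval -0.09 to 0.33 in FoEV vs. Co). TOP2A, the topoisomerase that untangles chromosomes, was at 386, 513, 424, 429.9 and 385 CPM in Co, 421, 468, 408, 413 and 422 in FeEV and 307, 417, 434, 384 and 384 in FoEV, again with Co replicate 2 highest (95% interval -0.35 to 0.05 in FoEV vs. Co).

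The genes that govern entry from G1 were less evenly measured. CCND1 (cyclin D1) had 11, 1, 2, 1 and 8 counts in Co, 4, 2, 7, 2 and 11 in FeEV and 13, 7, 6, 4 and 14 in FoEV, or 0.365 to 3.79 CPM, and was not tested. Counts this low, some of those in Co and FeEV at or under a floor of 3 per library, do not allow a fold change. CCND2 (cyclin D2) was at 64.9 ± 9.76 CPM in Co, 65.9 ± 9.68 in FeEV and 74.4 ± 14.5 in FoEV, and CDK4 at 40.8 ± 7.32, 39.95 ± 2.11 and 40.2 ± 2.28. CDK6, the other partner of D-type cyclins, varied most of all 49 genes, with 28.8, 14.2, 27.4, 26.5 and 19.3 CPM in Co, 18.2, 10.4, 12.2, 19.1 and 9.22 in FeEV and 22.7, 26.2, 11.6, 14 and 7.91 in FoEV. The treatments overlapped, and FeEV had the lowest mean (log2 fold change -0.76, standard error 0.31, edgeR adjusted p = 1.00). RB1, the retinoblastoma protein, had 7.29, 6.75, 7.42, 15.3 and 5.33 CPM in Co, 9.24, 5.2, 5.94, 3.19 and 3.35 in FeEV and 6.02, 8.32, 4.96, 3.67 and 6 in FoEV. Co replicate 4 was apart from the other 14 libraries, and without it the log2 fold change in FeEV vs. Co moved from -0.61 to -0.30. E2F1 (log2 fold changes 0.22 in FoEV and 0.19 in FeEV vs. Co) and the CDK inhibitor CDKN1B, p27 (-0.08 and 0.02), did not pass the unadjusted threshold.

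In FeEV vs. Co, which asks the same of fresh oEVs, 0 of 49 reached an adjusted p under 0.05 in the quasi-likelihood test, in the Wald test of DESeq2 or in the robust dispersion test, which called 0, 1 (0.00923%) and 6 (0.0554%) of all genes. At an unadjusted p under 0.05, 2 passed, CCNE1 and CDK6, both lower in FeEV. That is 4.08% of the 49 genes, beside 4.15% of all genes (1.83% higher and 2.32% lower). Without Co replicate 3 or FeEV replicate 5 the count was 0 (3.66% and 3.68% of all genes), and without FeEV replicate 1 it was 4 (4.63%). The means of 30 genes were higher and of 19 lower, the median log2 fold change being 0.02, beside 51.0% higher over all genes. No gene was without overlap between FeEV and Co (0 of 49, beside 0.951% of all genes, 0.535% higher and 0.415% lower). In the quasi-likelihood fit of FoEV vs. FeEV, 0 genes had an adjusted p under 0.05 and 5 passed the unadjusted threshold, all lower in FoEV. They were CDK2, CDC6, TTK, BUB1 and CENPF, or 10.2% of the 49 genes beside 8.52% of all genes (4.83% higher and 3.69% lower). Without FoEV replicate 1 the count was 2 (6.49% of all genes), and without FeEV replicate 2 it was 3 (5.87%). The Wald test and the robust dispersion test also called 0 of the 49 there, and 3 (0.0277%) and 31 (0.286%) of all genes. Between both vesicle preparations, 32 means were lower and 17 higher in FoEV, with a median of -0.09, beside 51.8% higher over all genes. The comparisons are not independent of each other, since the Co libraries enter both vesicle comparisons and the FoEV libraries enter that with Co and that with FeEV.

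**Figure D3:**
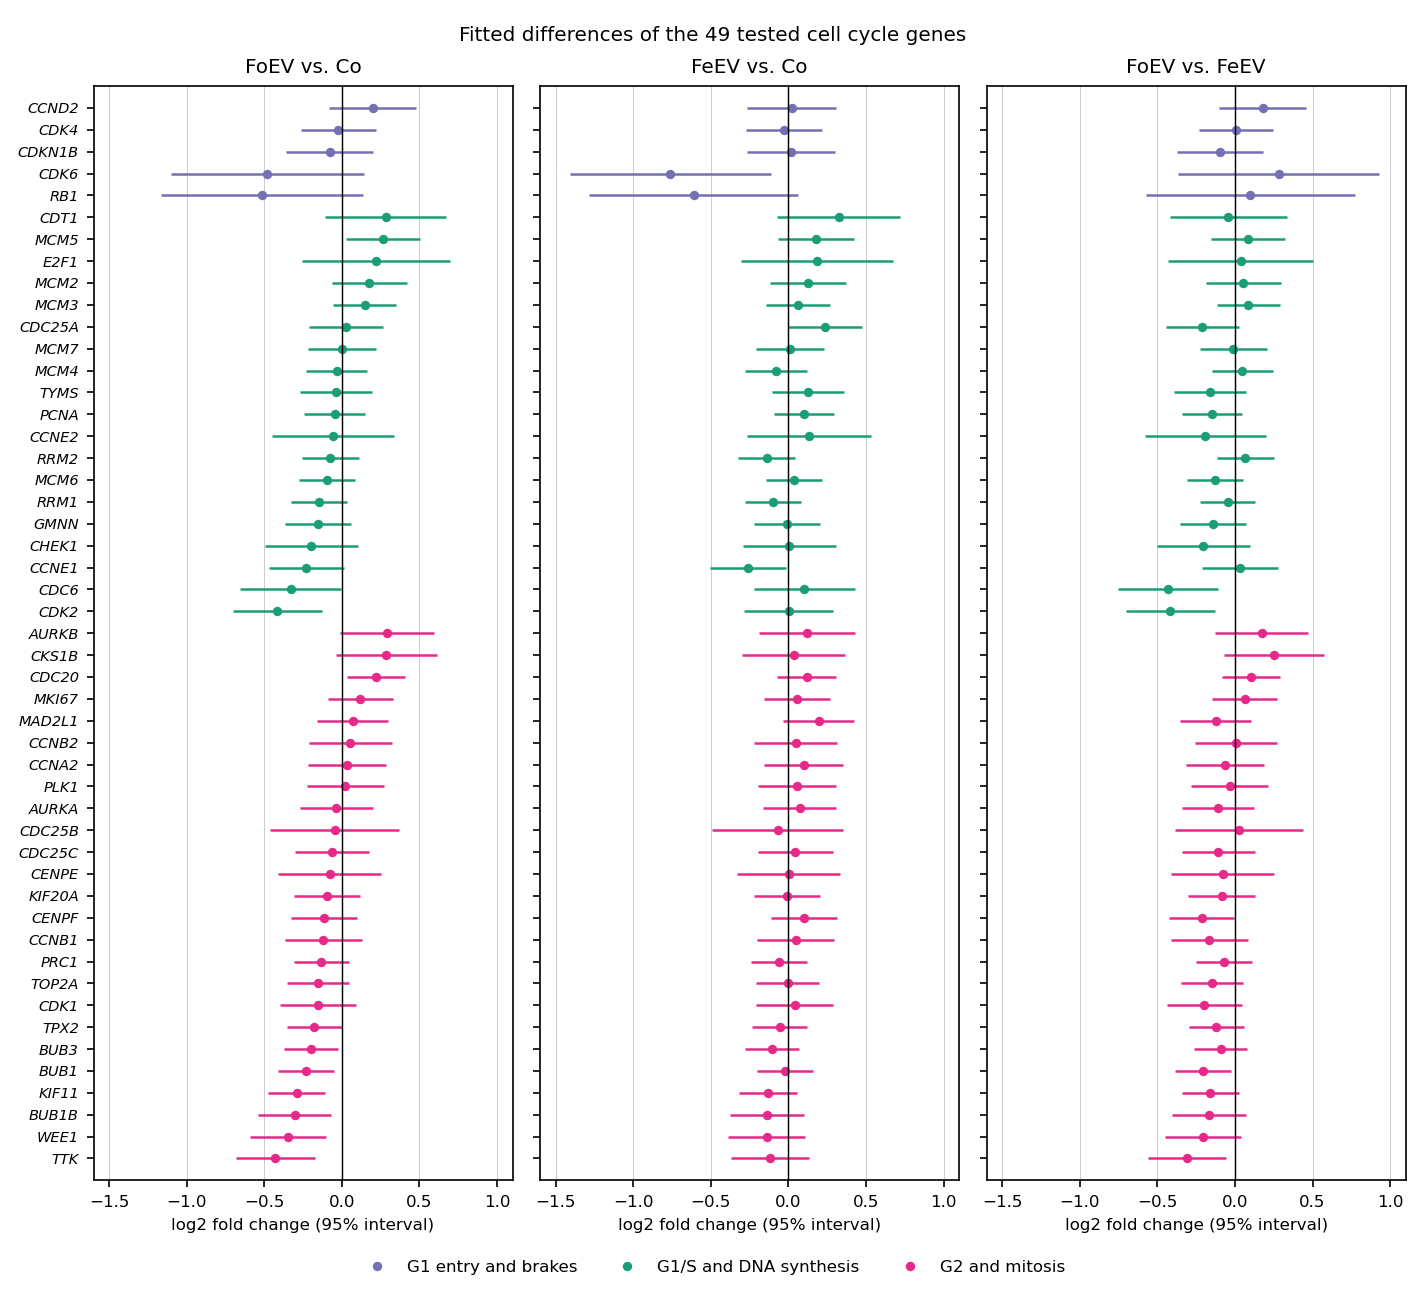
Fitted log2 fold change (x axis) with its 95% interval (lines) of the 49 tested genes (y axis), coloured by list, in FoEV vs. Co, FeEV vs. Co and FoEV vs. FeEV. In FoEV vs. Co, 34 of the points lie left of 0, with TTK lowest among the G2 and mitosis genes, and CDK6 and RB1 have the widest intervals.

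For most genes, the 95% intervals leave only sizes under 1.41-fold in either direction. In FoEV vs. Co, the 95% interval of the log2 fold change lay within 0.5 on either side of 0, a 1.41-fold change, for 37 of the 49 genes, and within 1 (2-fold) for 47. CDK6 and RB1 were the exceptions, and RB1 had the lowest bound, at -1.16. In FeEV vs. Co, 43 and 47 genes lay within these bounds, again with CDK6 and RB1 as the exceptions at 2-fold, and in FoEV vs. FeEV 40 and 49 genes. The median half-width of the intervals was 0.24 in each comparison. Among the genes not within 0.5 in FoEV vs. Co were several described above. Lower bounds were -0.68 for TTK, -0.70 for CDK2, -0.66 for CDC6, -0.59 for WEE1 and -0.54 for BUB1B. On the other side, the upper bounds of MCM5, CDT1, AURKB, E2F1 and CKS1B lay above 0.5.

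The wider machinery was read from 6 further lists of 161 genes, of which 154 were tested. In FoEV vs. Co, 0 of them had an adjusted p under 0.05 with edgeR, and 23 passed the unadjusted threshold (14.9%, beside 15.1% of all genes), 8 higher and 15 lower. Cohesin and condensin, the rings that hold and fold chromosomes, had 1 higher and 6 lower of 19 genes, with a median log2 fold change of -0.10. For the anaphase-promoting complex 3 were higher and 1 lower of 19, for the E2F, pocket protein and MuvB factors 2 and 2 of 17, for origin firing and the replication fork 2 and 2 of 39, for other cyclins, inhibitors and checkpoint kinases 0 and 2 of 20, and for the kinetochore, passenger complex and spindle 0 and 2 of 40. The smallest p belonged to HMMR, a spindle assembly factor, at 172 ± 36.9 CPM in Co and 0.727 of that level in FoEV (log2 fold change -0.46, standard error 0.13, edgeR adjusted p = 0.126). RAD21, the cohesin subunit cut at anaphase, had 204 ± 19.2 and 165 ± 19.5 CPM (log2 fold change -0.31, standard error 0.09, edgeR adjusted p = 0.148). SMC2, a core subunit of condensin, had 263 ± 9.41 and 221 ± 17.3 CPM (log2 fold change -0.25, standard error 0.08, edgeR adjusted p = 0.152), and it was also among the 3 smallest p in FoEV vs. FeEV (log2 fold change -0.21).

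In FeEV vs. Co, 3 of the 154 genes passed the unadjusted threshold (1.95%, beside 4.15% of all genes), all higher in FeEV. These were the centromere protein CENPT (0.29 on the log2 scale), the clamp loader subunit RFC2 (0.33) and E2F3 (0.39), a transcription factor of G1/S genes. In FoEV vs. FeEV, 12 passed (7.79%, beside 8.52%), all lower in FoEV, led by LIN9, a MuvB subunit (-0.36), and ATM, a DNA damage kinase (-0.30). In neither comparison did a gene of these lists pass an adjusted p under 0.05 with edgeR (0 genes). The 7 genes of the lists that were too low to be tested had at most 31 counts in a library. They were E2F2, the CDK inhibitors CDKN1C, CDKN2A, CDKN2B, CDKN2C and CDKN2D, and the phosphatase CDKN3.

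**Figure D4:**
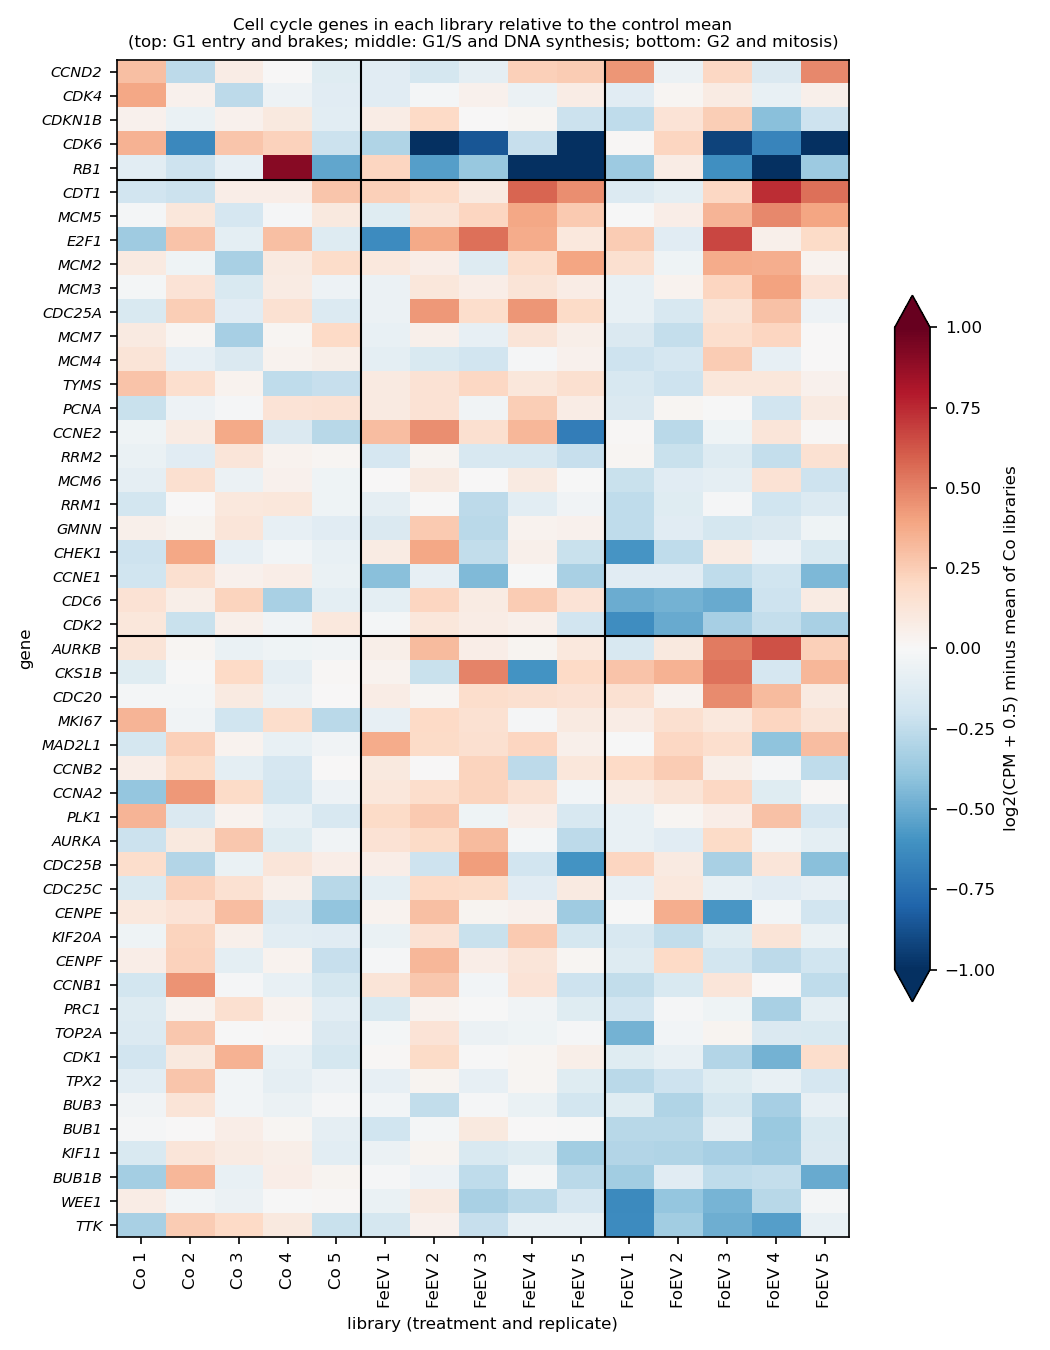
Level of each of the 49 genes (rows) in each library (columns), as log2(CPM + 0.5) minus the mean of the Co libraries, with red above and blue below it. Of 735 values, 6 lie beyond 1 on this scale, all for CDK6 and RB1. The block of lower values for WEE1, TTK and KIF11 in FoEV is weaker in FoEV replicate 5, and Co replicate 2 is high in CCNB1, CCNA2 and TPX2.

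Cell type markers were tested in the same fit, and their summed levels are CPM without TMM. Of the 9 tested trophectoderm markers, 8 had higher means in FoEV than in Co, 4 of them past the unadjusted threshold (15.1% of all genes) and 0 past an adjusted p under 0.05 with edgeR (lowest adjusted p = 0.0818), and the summed level of the list had means ± SD (n = 5) of 7795 ± 752 CPM in Co, 9125 ± 1582 in FeEV and 10054 ± 1674 in FoEV, from 6580 to 8503, 6798 to 10639 and 8165 to 12664. The summed inner cell mass markers were at 412 ± 39.4, 409.8 ± 25.3 and 405 ± 49.2 CPM, and 1 of 5, NANOG, was lower in FoEV vs. Co at an unadjusted p under 0.05. In FeEV vs. Co, 1 of the 5 was likewise lower and 0 were higher at this threshold, which 4.15% of all genes passed. The hypoblast markers were at 1179 ± 181, 1126 ± 136 and 1112 ± 113 CPM. The means of both these sums differed between treatments by less than their SD. Whether trophectoderm content or library depth has a part in the cell cycle values was not tested, apart from counts thinned to equal depth. With these, 9 of the 49 genes passed the unadjusted threshold in FoEV vs. Co, 7 lower and 2 higher, and 8 of them were among the 11. The share of all genes was then 14.1%, beside 18.4% of the 49.

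Within treatments, the genes of a phase varied together only weakly from pool to pool. As deviations from the treatment means over the 15 libraries, the median correlation was 0.20 over 171 pairs of G1/S genes and 0.17 over 300 pairs of G2 and mitosis genes, beside -0.000508 over all pairs of genes tested. Between the 2 lists it was 0.07. The pairs share libraries and depth, and these values are a description. Co replicate 2 was above every other Co library for 13 of the 25 G2 and mitosis genes, and without it the median for that list was 0.13. Without Co replicate 2, 8 of the 49 genes passed the unadjusted threshold in FoEV vs. Co, 6 lower and 2 higher, and 7 of them were among the 11. That is 16.3% of the 49, beside 12.8% of all genes.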

How the data were processed

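Total RNA of 15 pools of bovine blastocysts was sequenced (3 treatments, 5 libraries each). The authors deposited raw read counts per gene, a filtered table of 10832 genes and an unfiltered table of 34773 genes. The submitters' processing notes list Trim Galore 0.4.3.1, HISAT2 2.1.0 and featureCounts 1.6.3 and the build ARS-UCD1.2, while the methods name another counter, so the counter is uncertain. Symbols were matched by gene ID to the RefSeq gene table of ARS-UCD2.0 (10709 of 10832), used for names only.

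Counts of the filtered table were fitted in edgeR 4.0.16 under R 4.3.3 (TMM, 1 dispersion estimate over the 15 libraries, robust quasi-likelihood fit, no covariate), with the contrasts FoEV vs. Co, FeEV vs. Co and FoEV vs. FeEV and Benjamini-Hochberg adjustment over all genes. The methods' robust dispersion with a likelihood ratio test and the Wald test of DESeq2 1.42.0 were alternatives, beside other filters, scalings, replicate blocks, thinned counts and leaving out each library. The standard error is the absolute log2 fold change divided by the square root of F.

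Library totals ran from 2136713 to 4058887 counts. All 30 pairs of libraries of a treatment differed by more than sampling noise (chi-square per gene 3.74 to 30.2, 1 if only noise), and none was counted as a duplicate. The noise is that of drawing counts only, so these values cannot tell repeated libraries of 1 RNA from separate pools. The members and lists were chosen with earlier results of these data known. Named by rule were all 50 genes, library by library 9 genes covering the roles and the 5 with the smallest p per comparison, and from the related lists the 3 with the smallest p. BUB3, CDC20, TPX2 and the other called genes were added after their values were seen. Whether paralogs share reads was not tested. Promoter and protein sequences were not used here.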

Additional observations from a re-analysis of the deposited data

Results flagged for a closer look

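In 12 of 147 combinations of gene and treatment, 1 library stood apart from the other 4 by Dixon's criterion, where about 1 in 20 is given by chance, and in all 12 it was the highest.

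In Co replicate 2 this held for 4 genes. CCNB1 was at 233 CPM (others 150.2 to 169), TPX2 at 251 (192 to 203), BUB3 at 158 (139 to 143) and CHEK1 at 70.8 (46.7 to 53.0). In FeEV replicate 2, TOP2A was at 468 CPM (408 to 422), RRM2 at 244 (205 to 215) and AURKB at 27.9 (22.8 to 24.0). In FoEV replicate 2, CENPF was at 393 CPM (285 to 311) and CDC25C at 46.4 (39.7 to 40.8). AURKA stood at 114 CPM in FoEV replicate 3 (91.6 to 96.8), KIF11 at 147 in FoEV replicate 5 (127 to 133) and RB1 at 15.3 in Co replicate 4 (5.33 to 7.42). RB1 had the lowest median count of the 49 tested genes, 20. A cause of these values was not tested.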

How the results depend on the processing

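For FoEV vs. Co, the number of genes with an adjusted p under 0.05, 1 with edgeR's quasi-likelihood test, was 173 without the low count filter, 311 with the robust dispersion, 144 with DESeq2, 57 with the replicate block by title number, 12 with the block by library number, 10 with thinned counts, 5 with only both treatments in the fit, and 0 to 58 when 1 library was left out (58 without FoEV replicate 2). For FeEV vs. Co, 0 became 13, 6 and 1 under the first 3 of these, with 0 to 0 when 1 library was left out. For FoEV vs. FeEV, 0 became 22, 31 and 3, 1 with the block by library number, and 0 to 1. Whether the replicate numbers pair the libraries is not known. By title number, the mean correlation of deviations was 0.03, 0.14 and 0.19 for same-numbered libraries, beside -0.008, -0.03 and -0.05 for the others. By library number it was 0.08, 0.10 and 0.07, beside -0.010, -0.013 and -0.014. The cause of the differences in these gene counts was not tested.

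Of the 49 genes, 11 passed the unadjusted threshold in FoEV vs. Co, and 7 with the replicate block by library number (all lower, 6 of them among the 11, 14.3% beside 14.6% of all genes). With 1 library left out, 8 to 12 passed, beside 11.5% to 18.1% of all genes. In FeEV vs. Co, 2 became 4 without the low count filter (8.16%, beside 4.46% of all genes). It became 3 with the robust dispersion, either replicate block, thinned counts or only both treatments (6.12%, beside 4.22% to 6.13% of all genes). With 1 library left out it was 0 to 4, beside 2.9% to 5.63% of all genes. In FoEV vs. FeEV, 5 became 2 to 7, beside 5.87% to 11.4% of all genes. The median correlation within lists was 0.133 to 0.226 (G1/S) and 0.134 to 0.195 (G2 and mitosis) with 1 library left out.

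Of 760 values of single genes, 737 kept direction and side of the threshold, 4 passed it and 19 turned sign. In FoEV vs. Co, the adjusted p of TTK was 0.0358 without the filter, 0.0159 with the robust dispersion and 0.0436 with DESeq2, and that of KIF11 was 0.0412 with DESeq2. The log2 fold change of TOP2A in FeEV vs. Co turned to 0.0157 (robust dispersion) and 0.00195 (title block), that of CDK1 to -0.14 (library number block), and that of CCNA2 in FoEV vs. FeEV to 0.00925 (library number block) and 0.00292 (thinned). With 1 library left out, CCNA2 ran from -0.0524 to 0.16 and CCNB1 from -0.19 to 0.0118 in FoEV vs. Co, CCNB1 from -0.00946 to 0.18, CDK1 from -0.00865 to 0.14, MKI67 from -0.00813 to 0.15 and TOP2A from -0.0411 to 0.0687 in FeEV vs. Co, and CCNE1 from -0.0130 to 0.0958 in FoEV vs. FeEV.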
